A study of Mus musculus with 8 samples.

Results

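Interferons are secreted signals that switch on defence genes. Type I interferons act through a receptor that activates a complex holding STAT2 and IRF9, which binds the interferon-stimulated response element (ISRE) in front of genes such as the Ifit family, Isg15 and Rsad2. Interferon gamma acts in part through IRF1, and drives guanylate-binding proteins, immunity-related GTPases and the genes that load peptides onto MHC molecules. MHC class I is made by nearly every cell, hepatocytes included, whereas MHC class II in liver is made chiefly by Kupffer cells, dendritic cells and B cells.

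The genes described here are 38 mouse genes of the interferon response and antigen presentation, taken by symbol from a deposited table of 47719 genes. Of these, 23 are type I interferon genes, 6 are interferon-inducible GTPases, 5 belong to MHC class I and 4 to MHC class II. The table gives FPKM, fragments scaled by transcript length and by library size, so that levels can be set side by side between genes. Every one of the 38 symbols had 1 row, and 36 of them reached 1 FPKM in at least 2 of the 8 libraries and were tested. Ifit2 and Ifi44 did not, and are given by their levels alone. The test ran on 12340 genes in all.

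All 8 libraries came from liver of wild-type C57BL/6 mice. Normal control mice aged 10 weeks gave 2 libraries. The other 6 followed extended hepatectomy, an operation that takes out most of the liver, 4 of them taken at day 2 and 2 at day 14. The study tested human hepatocyte organoids in a capsule against liver failure, and its design text names EMC-treated control mice and eLO-treated mice at day 2, and eLO-treated mice alone at day 14. What EMC and eLO stand for is not spelled out in the labels. Which day 2 libraries had which treatment is not labelled. The 4 therefore formed 1 group, and surgery, treatment and time cannot be told apart. Day 2 replicate 1 carries a title that reads day 1 beside an age label that reads day 2, and replicate 3 has TVR in its title, which the labels do not explain. Whether replicates are separate animals is not stated, and p-values then measure only the spread between these samples, which may be technical.

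The libraries held 10796 to 11197 genes at 1 FPKM or more, and their total FPKM ran from 686332 to 1298005. Absolute depth was unknown. The steps between the lowest values put the relative depth of the libraries at 0.633 to 1.15 of control replicate 1, with day 14 replicate 1 the shallowest. All 8 hepatocyte markers examined were tested genes, and their summed level was 44592 to 88960.3 FPKM in every library. Across tested genes the control libraries correlated at r = 0.988 and the day 14 libraries at r = 0.963. Within day 2, replicates 1 and 2 correlated at r = 0.959 and replicates 3 and 4 at r = 0.968, but pairs across these lay at 0.889 to 0.926. Values below are therefore mostly given for each library.

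RefSeq promoter sequences on GRCm38.p6 were found for 29 of the 38 genes. The ISRE core, searched on both strands as GAAANNGAAA in the 250 bases before each start, was in 13 of the 29 (44.8%) against 3.46% of all 27025 promoters in the table. It was in 5 of 5 GTPases with a promoter (Gbp2, Gbp3, Gbp7, Igtp and Irgm1), in 6 of 12 effectors (Ifit1, Ifit3, Isg15, Rsad2, Oas1a and Bst2), and in Stat2 and B2m. The letters TTCNNNGAA of the gamma-activated site, an element of interferon gamma target genes, were in 6 of 29 (20.7%) against 8.13% of all. These were Irf1, Ifit2, Oas1a, Bst2, Gbp7 and Igtp, and in Bst2 the match shares bases with an ISRE match. The ATTGG letters of the Y box, the element that NF-Y binds in MHC promoters, were in 15 of 29 (51.7%) against 37.5% of all, and in all 5 class I and both class II genes that had a promoter. A match here is only a match of letters in this window.

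The windows below show the ISRE match nearest the start in the GTPases, which share a pattern between libraries described further on, in 3 effectors whose levels fell at day 2, and in Isg15 and B2m, which were high at day 14. Each reads 5′ to 3′ on the gene's own strand, with every complete ISRE match in capitals. A match on the other strand reads TTTC, any 2 bases, TTTC.
Gbp2, chr3:142620574-142620643 (+), 59 bases before the start: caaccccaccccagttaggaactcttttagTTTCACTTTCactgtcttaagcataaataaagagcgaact
Gbp3, chr3:142559975-142560043 (+), 39 bases before the start: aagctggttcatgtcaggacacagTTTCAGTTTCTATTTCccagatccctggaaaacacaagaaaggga
Gbp7, chr3:142530253-142530322 (+), 53 bases before the start: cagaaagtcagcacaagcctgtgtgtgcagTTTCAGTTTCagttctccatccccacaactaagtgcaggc
Igtp, chr11:58199492-58199555 (+), 34 bases before the start: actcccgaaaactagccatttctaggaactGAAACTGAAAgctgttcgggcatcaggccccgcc
Irgm1, chr11:48871421-48871474 (-), 24 bases before the start: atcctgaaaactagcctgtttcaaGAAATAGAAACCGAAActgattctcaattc
Ifit1, chr19:34640774-34640843 (+), 85 bases before the start: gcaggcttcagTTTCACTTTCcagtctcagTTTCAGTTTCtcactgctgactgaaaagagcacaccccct
Ifit3, chr19:34583377-34583446 (+), 122 bases before the start: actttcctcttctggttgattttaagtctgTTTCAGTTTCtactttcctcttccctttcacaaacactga
Rsad2, chr12:26456533-26456602 (-), 120 bases before the start: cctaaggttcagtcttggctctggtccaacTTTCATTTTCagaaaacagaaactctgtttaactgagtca
Isg15, chr4:156200845-156200914 (-), 66 bases before the start: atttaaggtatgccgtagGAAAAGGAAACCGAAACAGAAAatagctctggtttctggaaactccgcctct
B2m, chr2:122147518-122147587 (+), 139 bases before the start: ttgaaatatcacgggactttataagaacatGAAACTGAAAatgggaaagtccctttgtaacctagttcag
Isg15 held 3 overlapping matches and Irgm1, Gbp3, Ifit1 and Ifit3 held 2 each, while Gbp2, Gbp7, Igtp, Rsad2 and B2m held 1. The other Ifit3 match starts 156 bases before the start, is cut by the window and is not in capitals.

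For the MHC genes whose levels are compared below, the Y box nearest the start is shown in the same way, with the ATTGG letters of either strand in capitals.
H2-Eb1, chr17:34305802-34305866 (+), 35 bases before the start: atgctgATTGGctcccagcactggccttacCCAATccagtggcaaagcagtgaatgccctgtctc
H2-Aa, chr17:34287837-34287901 (-), 48 bases before the start: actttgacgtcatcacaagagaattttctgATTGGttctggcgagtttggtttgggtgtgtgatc
H2-D1, chr17:35263011-35263075 (+), 53 bases before the start: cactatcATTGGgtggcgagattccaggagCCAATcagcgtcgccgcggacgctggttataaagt
B2m, chr2:122147604-122147668 (+), 53 bases before the start: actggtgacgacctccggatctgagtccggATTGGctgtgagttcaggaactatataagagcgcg
H2-Eb1 and H2-D1 each held 2 matches, on opposite strands, and H2-Aa and B2m held 1.

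**Figure D1:**
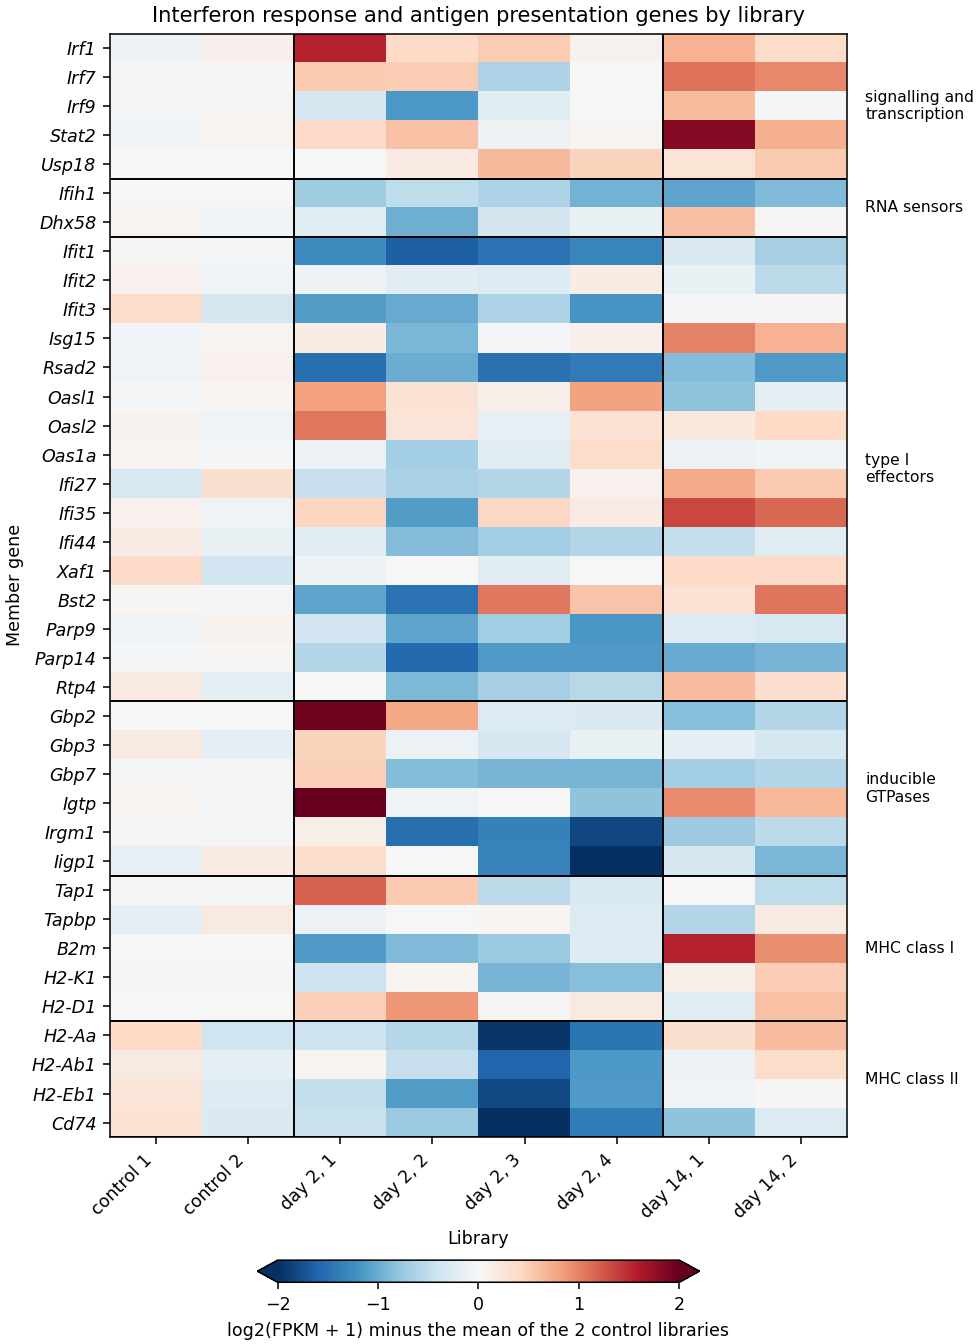
Level of each of the 38 genes (rows, grouped by role) in each of the 8 libraries (columns), as log2(FPKM + 1) minus the mean of the 2 control libraries, with colours saturating at 2 log2 units either way. The GTPase block is red in day 2 replicate 1 and mostly blue in replicates 3 and 4, the class II block is bluest in day 2 replicates 3 and 4, and B2m is red only at day 14.

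At day 2 no member was called higher than in control, and 6 of the 36 tested were called lower: Ifit1, Rsad2, Ifit3, Ifih1, Parp14 and H2-Eb1. The call was a Benjamini-Hochberg adjusted p under 0.05 in limma, over all genes tested. Among all tested genes 9.72% were called higher and 11.5% lower in this comparison, so the 6 stand against a background of similar size, and 11 members had an unadjusted p under 0.05 (37.5% of all tested genes). The day 2 and control libraries did not overlap, with day 2 lower, for 11 members (25.4% of all tested genes), and with day 2 higher for 2 members, Oasl1 and H2-D1 (26.1% of all tested genes). At day 14 against control 0 members were called higher and 2 lower, Ifih1 and Rsad2, against 5.21% and 4.58% of all genes, with 7 at an unadjusted p under 0.05 (29.8% of all genes). At day 14 against day 2, 5 members were called higher (B2m, Ifi27, Rtp4, Ifit3 and Ifit1) and 1 lower (Oasl1), against 9.09% and 7.03% of all genes, with 14 at an unadjusted p under 0.05 (34% of all genes). The comparisons share libraries: the first 2 share the controls, and the first and last share the day 2 libraries. The shares of all genes called in each comparison apply equally to the main-fit counts of each list below.

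**Figure D2:**
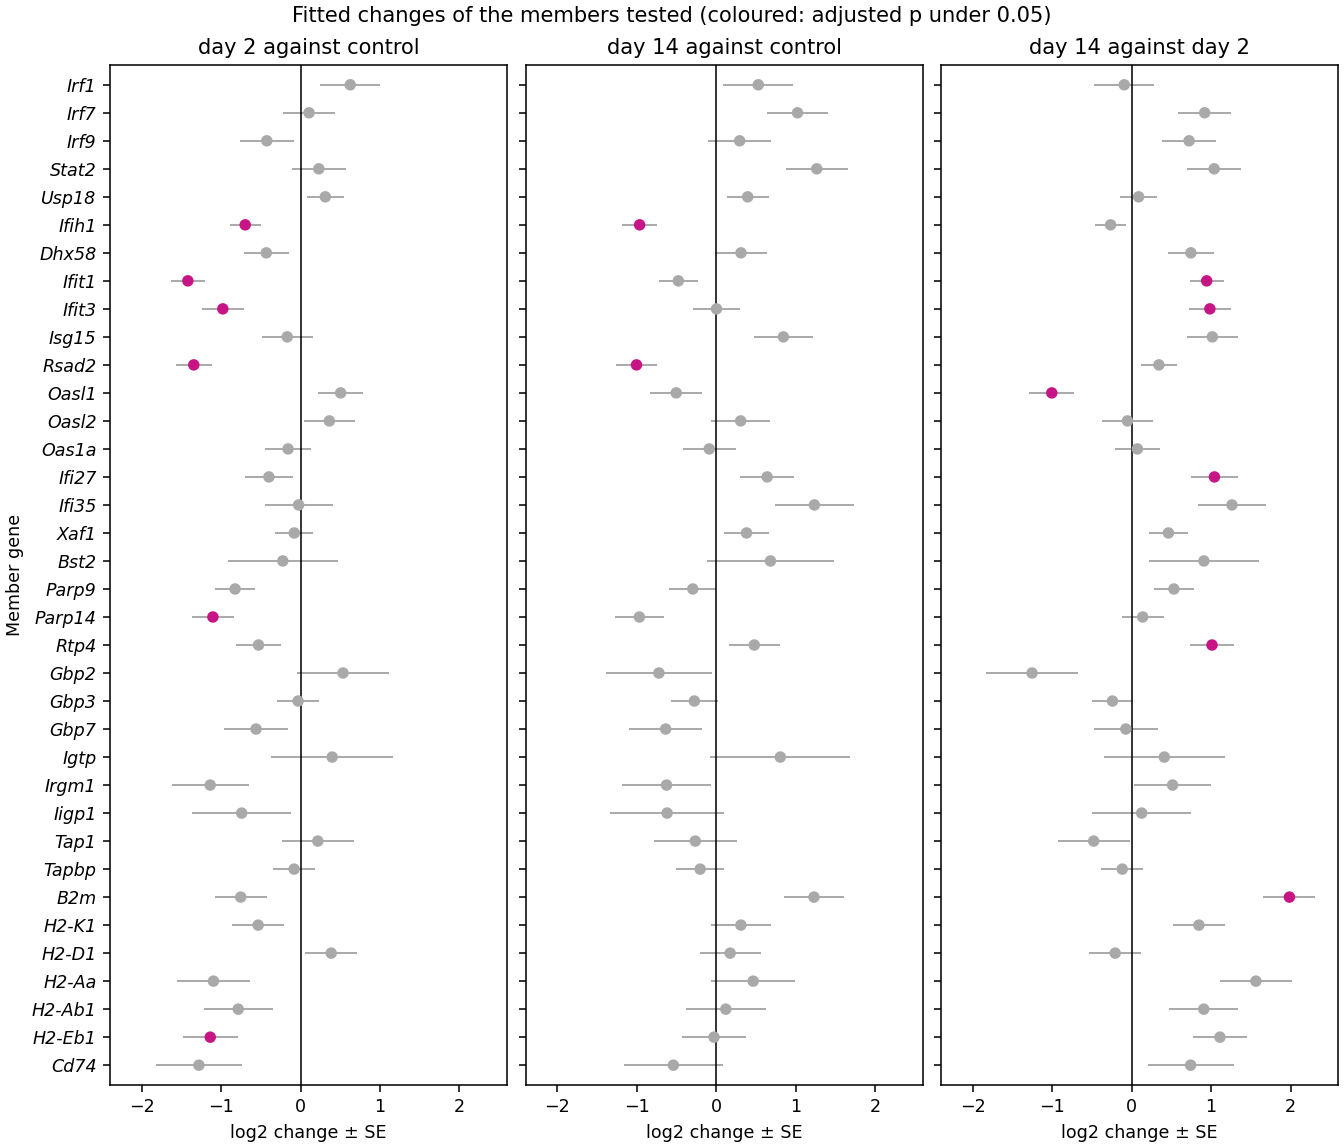
Fitted log2 change with its standard error (x axis) of the 36 tested members (y axis, in the order of the heat map) in the 3 comparisons, from limma on log2(FPKM + 1); coloured points had an adjusted p under 0.05. At day 2 against control the 6 coloured points all lie below 0, and at day 14 against day 2 B2m lies farthest to the right, at 1.99.

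With 2 control libraries the calls rested on both. Without control replicate 1 or without control replicate 2, 0 members were called in either comparison with control, where the lone control was assumed to vary like the other groups. At day 14 against day 2, B2m alone was called without either control library, and 0 members were called without day 14 replicate 1. Of the 40 called results given below with a test, members and other pathway genes together, 40 were lost without at least 1 of the 8 libraries. Of the same 40, 19 were lost with no filter on low values, 18 with the trend of change with transcript length and GC content removed, 10 where the fit held the 2 compared groups alone, 4 with a pseudocount of 0.1, 4 under quantile scaling, 1 under median-ratio scaling and 1 without limma's trend. Members held 14 of the 40, and 10 of these were lost with no filter: Ifih1 in both comparisons with control, Ifit3 at day 2 against control and at day 14 against day 2, Parp14, H2-Eb1, Rsad2 at day 14, Ifi27, Rtp4 and Oasl1. Ifit1 and Rsad2 at day 2 against control and B2m at day 14 against day 2 kept their calls under each of these settings in which they were tested. On simulated data, a change of 2 log2 units was recovered in 64% of genes at day 2 against control, 57% at day 14 against control and 73% at day 14 against day 2. A change of 1 log2 unit was recovered in 7%, 3% and 5%. The simulation changed 200 of the 12340 genes, fewer than were called in either direction in any comparison of the data. Its adjusted threshold was therefore stricter, and these shares do not carry over to the data. Member calls given below include changes of 1 log2 unit and less.

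The interferon genes themselves were scarcely detected. Of 15 type I, II and III interferon genes listed, none reached the filter. Ifnb1, the first type I interferon made on viral sensing, was listed at 0 in all 8 libraries. Ifng, the T and NK cell product interferon gamma, was listed at 0 in all 4 day 2 libraries, at 0.0611 and 0.249 FPKM in the control libraries, and at 4.48 and 0.946 FPKM in the day 14 libraries. Both day 14 values lay above every other library. The summed FPKM of 7 T cell markers (Cd3d, Cd3e, Cd3g, Cd4, Cd8a, Trac and Lck) was also highest at day 14, at 6.21 and 4.43, against 1.90 and 3.04 in control and 0.438 to 1.05 at day 2. Of these 7, 1 was a tested gene. Cd4 went the other way, at 0.737 and 1.49 FPKM in control and 0.464 and 0.581 FPKM at day 14. The summed FPKM of 6 NK cell markers, 1 of them tested, was 2.85 and 2.31 at day 14 and at most 0.890 elsewhere. Their part in the Ifng level was not tested. In bulk tissue, fewer cells of a type and less RNA per cell cannot be told apart, here and in all that follows.

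Among the receptors and kinases, 8 of 9 listed genes were tested. At day 2 against control 1 was called higher and 1 lower, against 9.72% and 11.5% of all genes. Ifngr1, the ligand-binding chain of the interferon gamma receptor, measured 5.73 and 6.57 FPKM in control and 9.33, 11.8, 12.0 and 15.3 FPKM at day 2, and rose (log2 change 0.86 ± 0.22 SE, limma adjusted p = 0.032). Jak1, the kinase shared by type I and type II receptors, measured 24.2 and 29.4 FPKM in control, 14.3 to 17.7 FPKM at day 2 and 13.3 and 13.6 FPKM at day 14. It fell in both comparisons with control, by 0.71 log2 units at day 2 (SE 0.19, limma adjusted p = 0.0358) and by 0.94 at day 14 (SE 0.22, limma adjusted p = 0.0412). Both Jak1 calls were lost when the trend with length and GC content of transcripts was removed, at -0.45 and -0.65. None of the 8 was called between day 14 and day 2.

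The 5 members that carry or brake the signal were not called in any comparison. Irf1, the transcription factor induced by interferon gamma, measured 8.79 and 10.2 FPKM in control, 29.3, 12.6, 13.8 and 10.1 FPKM at day 2, and 15.9 and 12.5 FPKM at day 14. It was highest in day 2 replicate 1, and the other day 2 libraries reached down to the control range. Irf7, the factor that amplifies type I interferon production, measured 15.3 and 14.7 FPKM in control, 22.1, 21.6, 9.43 and 15.0 FPKM at day 2, and 32.8 and 30.3 FPKM at day 14. Both day 14 libraries lay above all 6 others. Irf9, the DNA-binding partner of STAT2, measured 14.6 and 15.2 FPKM in control, 11.6, 6.19, 12.5 and 15.0 FPKM at day 2, and 23.6 and 14.6 FPKM at day 14, so that its groups overlapped in each comparison.

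Stat2, the most abundant of the 5, measured 13.9 and 14.9 FPKM in control, 19.1, 22, 13.2 and 14.9 FPKM at day 2, and 53.4 and 24.1 FPKM at day 14. The day 14 libraries were the highest but differed from each other more than the other libraries did. The log2 change was 0.23 ± 0.34 SE at day 2 (limma adjusted p = 0.643), 1.27 ± 0.39 at day 14 against control (adjusted p = 0.0754) and 1.04 ± 0.34 at day 14 against day 2 (adjusted p = 0.0703). Without day 14 replicate 2 both day 14 changes passed, at 1.83 (adjusted p = 0.0454) and 1.60 (adjusted p = 0.0315), and then rested on day 14 replicate 1 alone. Usp18, the protease that removes ISG15 and dampens the type I receptor, measured 3.73 and 3.82 FPKM in control and 3.74, 4.36, 6.48 and 5.48 FPKM at day 2. At day 14 it measured 4.79 and 5.83 FPKM, above both controls and within the day 2 range.

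Other transcription factors and coactivators of the response numbered 15, of which 12 were tested. Irf2, a factor that competes with IRF1 at shared sites, was the 1 called at day 2 against control. It measured 23.7 and 35.7 FPKM in control, 7.66, 3.70, 12.3 and 7.44 FPKM at day 2, and 30 and 31.3 FPKM at day 14. It fell at day 2 (log2 change -1.87 ± 0.39 SE, limma adjusted p = 0.0148) and was higher again at day 14 than at day 2 (1.94 ± 0.39 SE, adjusted p = 0.0166).

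Of the 6 negative feedback genes listed, all were tested, and at day 2 against control 2 were called higher and 0 lower. Among all tested genes 9.72% were called higher and 11.5% lower. Socs3, which blocks JAK kinases after cytokine signalling, measured 2.64 and 3.22 FPKM in control, 27.1, 71.7, 48.1 and 12.8 FPKM at day 2, and 10.4 and 10.7 FPKM at day 14. It rose at day 2 by 3.13 ± 0.57 log2 units (limma adjusted p = 0.0103). Ptpn2, a phosphatase of JAK1, rose by 1.10 ± 0.28 (adjusted p = 0.0302), from 6.19 and 5.61 FPKM to 10.6 to 21.2 FPKM. No gene of this list was called at day 14.

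The RNA sensors were at low levels. Ifih1, which encodes MDA5 and senses long double-stranded RNA, measured 9.04 and 8.91 FPKM in control, 5.07, 5.98, 5.49 and 4.20 FPKM at day 2, and 3.83 and 4.42 FPKM at day 14. All 6 libraries after hepatectomy lay below both controls. Ifih1 fell at day 2 (log2 change -0.70 ± 0.19 SE, limma adjusted p = 0.0384) and at day 14 (-0.96 ± 0.22 SE, adjusted p = 0.0389), and day 14 and day 2 differed by -0.27 ± 0.19 (adjusted p = 0.363). When the trend with length and GC content of transcripts was removed, the changes from control were -0.26 (adjusted p = 0.407) and -0.63 (adjusted p = 0.139), and neither was called. Dhx58, which encodes the helicase LGP2, measured 4.63 and 4.19 FPKM in control, 3.57, 1.74, 3.18 and 3.91 FPKM at day 2, and 7.21 and 4.49 FPKM at day 14, and was not called.

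Of 16 other sensors and adaptors, 12 were tested. At day 2 against control Zbp1, a sensor of Z-form nucleic acid that can start necroptosis, was called higher, and Trim25, the ubiquitin ligase that activates RIG-I, was called lower. Zbp1 measured 4.03 and 4.91 FPKM in control and 16.1, 9.68, 9.14 and 11.5 FPKM at day 2 (log2 change 1.18 ± 0.26 SE, limma adjusted p = 0.0196). Trim25 measured 16.4 and 22.4 FPKM in control and 12.3, 12.2, 10.7 and 9.41 FPKM at day 2 (-0.74 ± 0.22 SE, adjusted p = 0.0441). Removal of the length and GC trend ended both calls, at 0.93 and -0.54. In neither day 14 comparison was a gene of this list called.

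Of the 16 effectors 14 were tested, and at day 2 against control 0 were called higher and 4 lower: Ifit1, Rsad2, Ifit3 and Parp14. Among all tested genes 9.72% were called higher and 11.5% lower. Ifit1, a cap-binding protein that blocks translation of viral RNA, measured 2.96 and 2.85 FPKM in control, 0.627, 0.259, 0.405 and 0.569 FPKM at day 2, and 2.21 and 1.45 FPKM at day 14. The 3 groups did not overlap, with control highest and day 2 lowest. Ifit1 fell at day 2 by 1.42 ± 0.21 log2 units (limma adjusted p = 0.0057) and was higher at day 14 than at day 2 by 0.94 ± 0.21 (adjusted p = 0.0244). Rsad2, which encodes the antiviral enzyme viperin, measured 2.76 and 3.22 FPKM in control, 0.407, 1.01, 0.417 and 0.504 FPKM at day 2, and 1.18 and 0.812 FPKM at day 14. It lay below control in all 6 later libraries, by 1.35 ± 0.23 log2 units at day 2 (limma adjusted p = 0.00841) and by 1.00 ± 0.26 at day 14 (adjusted p = 0.0499). The day 14 call of Rsad2 was lost under 12 alternatives, among them a pseudocount of 0.1 (adjusted p = 0.098), the length and GC trend removed (-0.72, adjusted p = 0.163), no filter, and both other scalings.

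Ifit3, which stabilises IFIT1, measured 6.16 and 3.41 FPKM in control, 1.59, 1.80, 2.66 and 1.47 FPKM at day 2, and 4.55 and 4.72 FPKM at day 14. Day 2 lay below both other groups, and the day 14 libraries lay between the 2 controls. Ifit3 fell at day 2 (log2 change -0.98 ± 0.26 SE, limma adjusted p = 0.0334) and was higher at day 14 than at day 2 (0.98 ± 0.26 SE, adjusted p = 0.0393). The annotation holds a near-identical copy, Ifit3b, with which reads may have been divided. Ifit2 was listed below 1 FPKM in every library, from 0.162 to 0.854 FPKM. The 3 Ifit genes lie side by side on chromosome 19 of GRCm38, Ifit2 at chr19:34550694-34576419, Ifit3 at chr19:34583531-34588731 and Ifit1 at chr19:34640871-34650009.

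Parp14, an ADP-ribosyltransferase, measured 5.98 and 6.15 FPKM in control, 3.69, 1.41, 2.21 and 2.2 FPKM at day 2, and 2.53 and 2.7 FPKM at day 14. It fell at day 2 (log2 change -1.11 ± 0.27 SE, limma adjusted p = 0.0248), and with the length and GC trend removed the change was -0.72 (adjusted p = 0.115). Parp9, the partner of the ubiquitin ligase DTX3L, measured 16.8 and 18.7 FPKM in control, 13.4, 7.97, 10.5 and 7.34 FPKM at day 2, and 14.6 and 13.9 FPKM at day 14. Day 2 did not overlap control, but Parp9 was not called (adjusted p = 0.0529). Dtx3l itself, from the list of other effectors, was called lower at day 2, at -1.43 ± 0.34 (adjusted p = 0.0246), from 9.82 and 11.7 FPKM to 1.57 to 5.16 FPKM. That call too was lost with the trend removed, at -1.09.

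**Figure D3:**
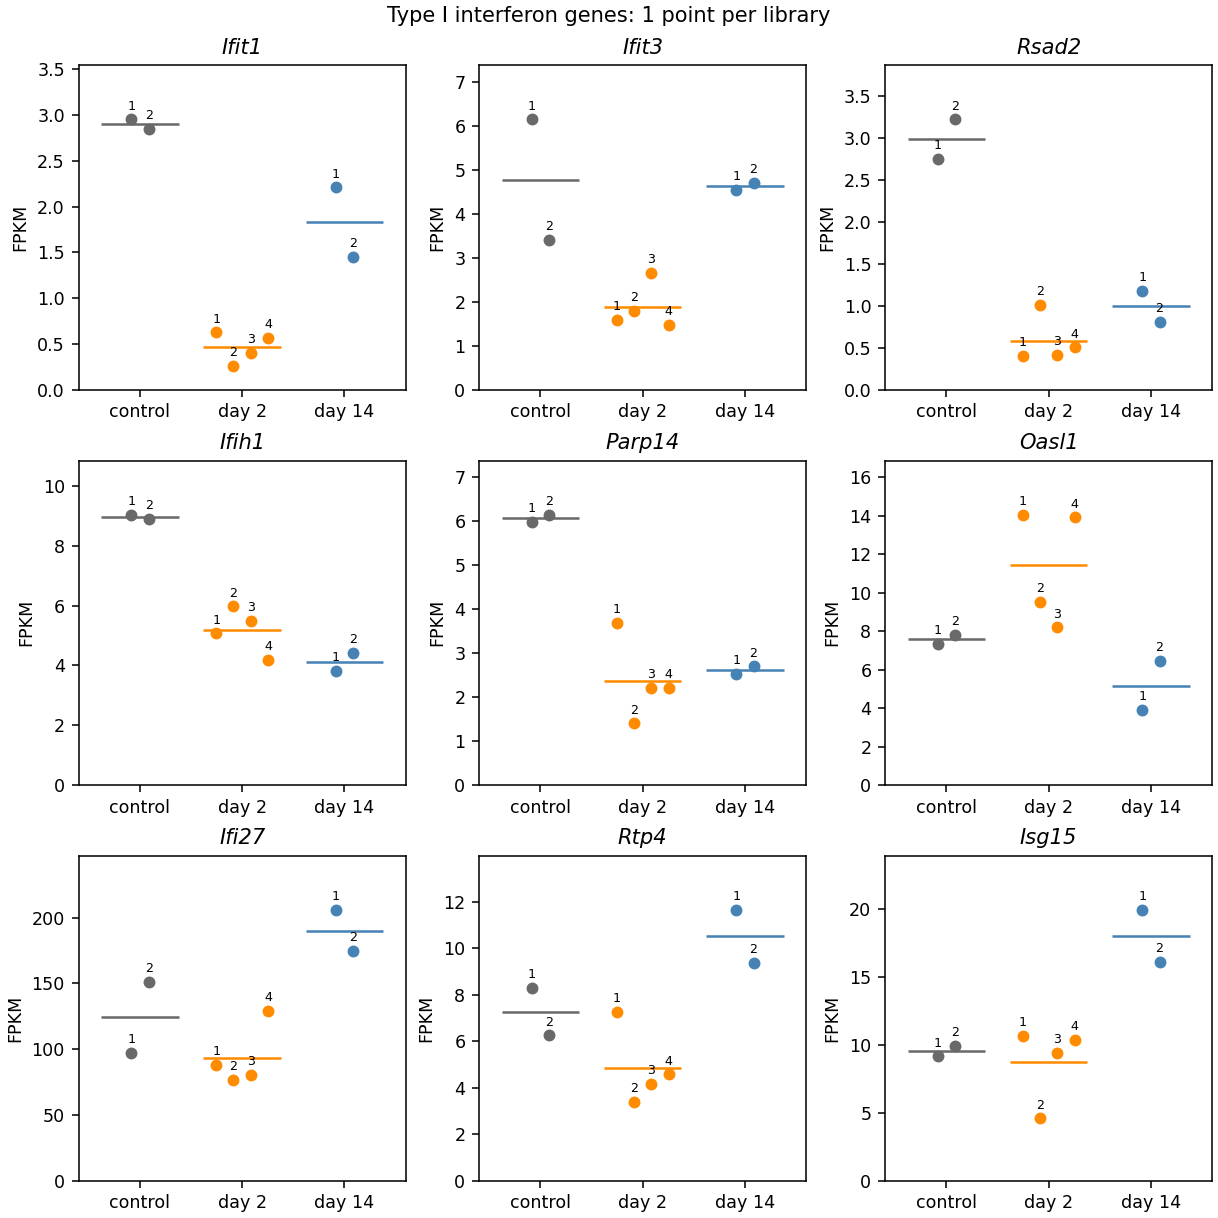
FPKM (y axis) of 9 type I interferon genes in control, day 2 and day 14 libraries (x axis), with 1 point per library marked by its replicate number and a line at the group mean. Day 2 points of Ifit1, Ifit3 and Rsad2 lie below both controls, and day 14 points of Ifi27 and Isg15 lie above all others.

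Isg15, Ifi35, Ifi27 and Rtp4 lay above both controls in both day 14 libraries. Of the 14 tested effectors, 6 lay wholly above control at day 14 and 6 wholly below, against 35.3% and 35.7% of all genes. Isg15, the ubiquitin-like modifier, measured 9.16 and 9.95 FPKM in control, 10.7, 4.58, 9.42 and 10.4 FPKM at day 2, and 19.9 and 16.2 FPKM at day 14. Ifi35, a leucine zipper protein, measured 20.8 and 18.5 FPKM in control, 26.9, 8.46, 26.4 and 22.2 FPKM at day 2, and 50.9 and 44.5 FPKM at day 14. For both genes the day 14 libraries lay above all 6 others, and day 2 replicate 2 was the lowest library, yet neither was called. Ifi27, a mitochondrial membrane protein, measured 97.1 and 151 FPKM in control, 88.1, 76.6, 80.4 and 129 FPKM at day 2, and 206 and 175 FPKM at day 14. It was higher at day 14 than at day 2 (log2 change 1.04 ± 0.30 SE, limma adjusted p = 0.0491), a call lost under 10 alternatives, among them quantile scaling (0.92, adjusted p = 0.0974), no filter (adjusted p = 0.0726) and only the compared groups (adjusted p = 0.0741). Rtp4, a chaperone-like protein, measured 8.30 and 6.25 FPKM in control, 7.25, 3.40, 4.16 and 4.57 FPKM at day 2, and 11.6 and 9.38 FPKM at day 14, and was likewise higher at day 14 than at day 2 (1.01 ± 0.28 SE, adjusted p = 0.0447), a call lost with no filter (adjusted p = 0.0811) or only the compared groups (adjusted p = 0.0828).

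Oasl1, an OAS-like protein that restrains translation of Irf7, moved the other way. It measured 7.34 and 7.80 FPKM in control, 14.1, 9.52, 8.21 and 13.9 FPKM at day 2, and 3.91 and 6.45 FPKM at day 14. The 3 groups did not overlap, with day 2 highest and day 14 lowest. Oasl1 was lower at day 14 than at day 2 (log2 change -1.01 ± 0.28 SE, limma adjusted p = 0.0471), and was no longer called with the length and GC trend removed (-0.89, adjusted p = 0.0622), under quantile scaling (-0.98, adjusted p = 0.052), with no filter (adjusted p = 0.0821) or with only the compared groups (adjusted p = 0.0929). Oasl2, its neighbour on chromosome 5, measured 1.83 and 1.57 FPKM in control, 4.63, 2.24, 1.41 and 2.29 FPKM at day 2, and 2.13 and 2.57 FPKM at day 14. Oas1a, a sensor that activates RNase L, ran from 0.437 to 1.98 FPKM, with both ends of that range at day 2.

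Of the remaining effectors, none was called. Bst2, the tether that holds budding virus at the membrane, was the most uneven of the abundant ones. It measured 187 and 182 FPKM in control, 88.3, 65.9, 386 and 275 FPKM at day 2, and 226 and 391 FPKM at day 14. Its day 2 libraries fell on both sides of control, replicates 1 and 2 below and replicates 3 and 4 above. Xaf1, a proapoptotic protein, ran from 4.95 to 9.13 FPKM, with both ends outside day 2. Ifi44 was listed at 1.26 and 0.850 FPKM in control, 0.772, 0.126, 0.276 and 0.365 FPKM at day 2, and 0.466 and 0.735 FPKM at day 14.

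Over the 21 tested type I interferon members the median log2 change was -0.23 at day 2 against control, 0.31 at day 14 against control and 0.72 at day 14 against day 2. Over all tested genes the medians were 0.05, -0.0021 and -0.03. By library, the median of the 21 against control was -0.12, -0.90, -0.24 and 0.01 in day 2 replicates 1 to 4, and 0.29 and 0.34 at day 14. Replicate 2 held the lowest day 2 value for 11 of the 23 genes, and replicate 1 the highest for 11. The day 14 libraries lay wholly above day 2 for 11 of the 21 and wholly below for 1, Oasl1. Over all 36 tested members these counts were 15 and 2, against 21.2% and 20.4% of all genes. At day 14 against control they were 13 and 12 of 36, against 35.3% and 35.7% of all genes.

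Another 44 type I effectors were listed and 36 tested. At day 2 against control 3 were called higher and 4 lower, at day 14 against control 0 and 3, and at day 14 against day 2 0 and 1. Of all genes 9.72% and 11.5%, 5.21% and 4.58%, and 9.09% and 7.03% were called so. The median log2 change of the 36 was -0.18, 0.03 and 0.19 in the same order, against -0.23, 0.31 and 0.72 for the 21 members. Day 14 lay wholly above day 2 for 7 of the 36 and wholly below for 6. The day 14 rise of the members was thus weaker in this list. The largest day 2 changes beside Dtx3l were increases of Ifitm1 and Ifitm2, membrane proteins that block viral fusion. Ifitm1 measured 8.53 and 8.78 FPKM in control and 28.9, 27.6, 29.9 and 19.0 FPKM at day 2 (log2 change 1.48 ± 0.32 SE, limma adjusted p = 0.018). Ifitm2 measured 338 and 356 FPKM in control and 781 to 1192 FPKM at day 2 (1.46 ± 0.33 SE, adjusted p = 0.0199), a call lost with the length and GC trend removed (0.80, adjusted p = 0.0938). At day 14 the 3 genes called lower than control were Lgals9, Cmpk2 and Slfn5. In that comparison 12 of the 36 lay wholly below control and 11 wholly above, against 35.7% and 35.3% of all genes. Lgals9, the lectin galectin-9, measured 299 and 297 FPKM in control and 95.6 and 102 FPKM at day 14 (-1.58 ± 0.38 SE, adjusted p = 0.0412). Cmpk2, the mitochondrial kinase next to Rsad2 in the genome, measured 2.32 and 2.15 FPKM in control and 0.447 and 0.607 FPKM at day 14 (-1.09 ± 0.22 SE, adjusted p = 0.0328). Slfn5, a Schlafen protein, measured 1.59 and 1.33 FPKM in control and 0.186 and 0.273 FPKM at day 14, and fell by 1.00 ± 0.25 log2 units (adjusted p = 0.0449). With the length and GC trend removed the calls of Slfn5 (-0.65, adjusted p = 0.164) and Cmpk2 (-0.97, adjusted p = 0.0574) were lost, and that of Slfn5 also with a pseudocount of 0.1 (adjusted p = 0.0963). Lgals3bp, a secreted glycoprotein, was the 1 gene called lower at day 14 than at day 2 (-1.15 ± 0.33 SE, adjusted p = 0.0491). The Lgals3bp call was lost under 11 alternatives, among them the trend removed (-1.03, adjusted p = 0.0644), quantile scaling (adjusted p = 0.0597) and no filter (adjusted p = 0.0803). Mx1, a dynamin-like antiviral protein, stood at 1.04 and 0.367 FPKM in control, at most 0.202 FPKM at day 2, and 0.522 and 0.446 FPKM at day 14, and was not tested.

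For all 6 GTPases replicate 1 was the highest day 2 library. These proteins gather on the membranes around intracellular pathogens. Igtp, an immunity-related GTPase also named Irgm3, measured 11.0 and 10.3 FPKM in control, 63.0, 10.1, 10.7 and 5.66 FPKM at day 2, and 21.5 and 17.5 FPKM at day 14. Its highest day 2 library exceeded the lowest 11.1 times, the widest such ratio among the 38 members. That ratio was 8.36 for Gbp2, 5.18 for Iigp1 and 2.2 for Gbp3, against 5.86 for Bst2 and 4.82 for Cd74, so it did not separate the GTPases from other members. Gbp2, a guanylate-binding protein, measured 1.44 and 1.42 FPKM in control, 8.21, 3.14, 1.02 and 0.981 FPKM at day 2, and 0.339 and 0.618 FPKM at day 14. Gbp7 measured 2.72 and 2.87 FPKM in control, 4.27, 1.08, 0.998 and 0.991 FPKM at day 2, and 1.36 and 1.52 FPKM at day 14. In both genes replicate 1 was the highest of the 8 libraries, and the day 14 libraries lay below control.

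Irgm1, a regulator of the other immunity-related GTPases, measured 38.5 and 37.4 FPKM in control, 41.0, 12.8, 14.3 and 10.0 FPKM at day 2, and 22.4 and 26.2 FPKM at day 14. Day 2 replicate 1 was at control level and the other 3 lay below both other groups. Gbp3 measured 2.53 and 1.74 FPKM in control, 3.25, 1.87, 1.47 and 1.82 FPKM at day 2, and 1.72 and 1.43 FPKM at day 14. Iigp1, the most abundant of the 6 and an effector GTPase, measured 111 and 139 FPKM in control, 158, 123, 48.6 and 30.5 FPKM at day 2, and 98.4 and 65.6 FPKM at day 14. Day 2 replicates 1 and 2 lay near or above control, and replicates 3 and 4 lay below both controls. The log2 change of Iigp1 was -0.74 ± 0.62 SE at day 2 against control (limma adjusted p = 0.407), -0.62 ± 0.72 at day 14 against control (adjusted p = 0.611) and 0.13 ± 0.62 at day 14 against day 2 (adjusted p = 0.903). The Gbp genes and the Irg genes have close copies in clusters, Gbp7, Gbp3 and Gbp2 lying within chr3:142530342-142638008, so reads may have been divided between copies.

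**Figure D4:**
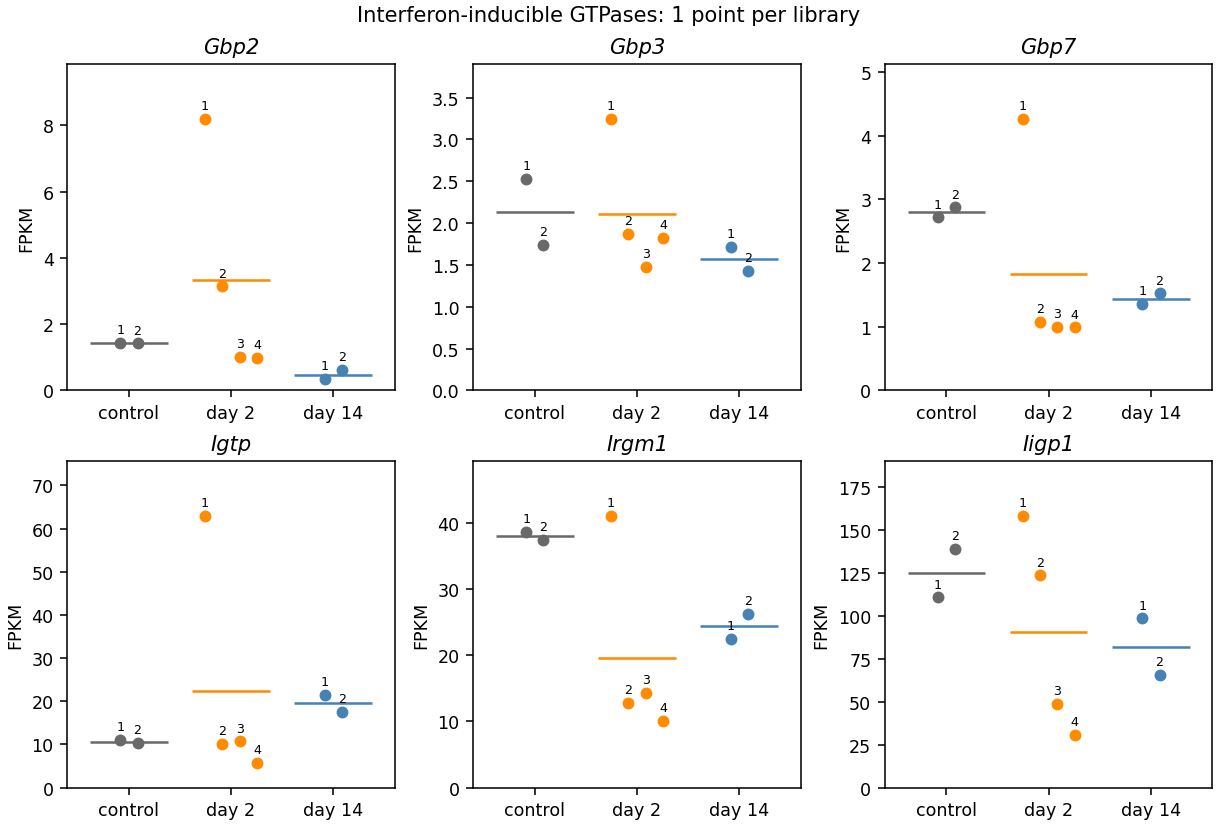
FPKM (y axis) of the 6 interferon-inducible GTPases in control, day 2 and day 14 libraries (x axis), with 1 point per library marked by its replicate number and a line at the group mean. Replicate 1 is the highest day 2 point in every panel, at 63.0 FPKM for Igtp, where the other 3 lie at 5.66 to 10.7 FPKM.

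None of the 6 GTPases was called in any comparison, and their median log2 change was -0.30 at day 2 and -0.62 at day 14 against control. With the length and GC trend removed the medians were 0.02 and -0.39, so the direction at day 2 was not kept. By library their median against control was 0.46, -0.09, -0.63 and -0.87 in day 2 replicates 1 to 4, and -0.51 and -0.55 at day 14. Replicate 1 held the highest day 2 level for 6 of 6 GTPases and 4 of 4 class II genes, and for 22 of all 38 members (57.9%), against 19.1% of all tested genes. Without replicate 1 the GTPase median at day 2 was -0.60, and 7 members were called lower at day 2: Ifit1, Rsad2, Parp14 and H2-Eb1 as before, and Gbp7, Irgm1 and Parp9. The share of all genes called lower in that fit is not given, so the 7 are not set against a background. Of the other GTPases 11 of 13 listed were tested, and replicate 1 was the highest day 2 library for 8 of them. Tgtp1, an interferon-inducible GTPase, stood at 6.60 FPKM in that library and at 0.277 to 1.24 FPKM in the other 7. Gbp4 stood at 4.45 FPKM there and at 0.438 to 1.46 FPKM in the others. Batf2, an interferon gamma induced transcription factor, stood at 2.19 FPKM there and at most at 0.360 FPKM elsewhere. Tgtp1, Gbp4 and Batf2 were picked after their values had been seen. Monocyte markers (9 genes, 7 of them tested) summed to 101, 123, 37.7 and 54.4 FPKM in day 2 replicates 1 to 4 and to 46.2 and 37.2 FPKM in control, and neutrophil markers (7 genes, 4 tested) to 140.1, 322, 87.2 and 31.8 FPKM and to 4.21 and 7.82 FPKM. Both sums were highest in replicate 2, not replicate 1, and their part in the GTPase levels was not tested.

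In the list of other GTPases 0 were called higher and 2 lower in each comparison with control. Among all genes 9.72% were called higher and 11.5% lower at day 2, and 5.21% and 4.58% at day 14. Gm4951, a GTPase related to Iigp1, measured 43.2 and 57.7 FPKM in control, 10.7, 2.82, 9.11 and 5.42 FPKM at day 2, and 6.84 and 9.12 FPKM at day 14. It fell by 2.79 ± 0.43 log2 units at day 2 (limma adjusted p = 0.00632) and by 2.52 ± 0.50 at day 14 (adjusted p = 0.0309), and all 6 later libraries, replicate 1 included, lay below both controls. Gbp10 fell from 3.85 and 3.63 FPKM to at most 0.394 FPKM at day 2 (-2.06 ± 0.26 SE, adjusted p = 0.0034) and to 1.69 and 0.608 FPKM at day 14 (-1.19 ± 0.30 SE, adjusted p = 0.0474). The day 14 call of Gbp10 was lost under 10 alternatives, among them the length and GC trend removed (-0.93, adjusted p = 0.134) and a pseudocount of 0.1 (adjusted p = 0.202). Gbp11 was the 1 gene of the list called at day 14 against day 2. It measured 5.69 and 1.06 FPKM in control, 1.48, 6.18, 0.244 and 0.228 FPKM at day 2, and 27.6 and 16.3 FPKM at day 14 (3.28 ± 0.76 SE, adjusted p = 0.0262).

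Of the 5 class I members only B2m was called, and only between day 14 and day 2. B2m, which encodes β2-microglobulin, the light chain of every class I molecule, measured 2079.8 and 2107 FPKM in control, 952, 1132, 1253 and 1751 FPKM at day 2, and 6080.4 and 3975 FPKM at day 14. The 3 groups did not overlap, with day 2 lowest and day 14 highest. B2m was higher at day 14 than at day 2 (log2 change 1.99 ± 0.33 SE, limma adjusted p = 0.00954), and was not called against control at day 2 (-0.75 ± 0.33 SE, adjusted p = 0.131) or day 14 (1.23 ± 0.38 SE, adjusted p = 0.0739). Without day 14 replicate 1, the shallowest library, the change from day 2 was 1.68 (adjusted p = 0.104).

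H2-K1, a classical heavy chain, measured 811 and 793 FPKM in control, 603, 829, 421 and 445 FPKM at day 2, and 864 and 1146 FPKM at day 14. H2-D1, the other classical heavy chain of this strain, measured 256 and 257 FPKM in control, 356, 468, 261 and 289 FPKM at day 2, and 218 and 386 FPKM at day 14. The day 2 libraries lay wholly above control for H2-D1 and mostly below it for H2-K1, and neither was called. The ratio of B2m to the sum of H2-K1 and H2-D1, in FPKM, was 1.95 and 2.01 in control, 0.993, 0.872, 1.84 and 2.39 at day 2, and 5.62 and 2.59 at day 14. It was below both controls in day 2 replicates 1, 2 and 3, least so in replicate 3, and highest in both day 14 libraries. H2-K1 and H2-D1 resemble each other and the H2-Q genes closely, so reads may have been divided between them.

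The peptide-loading genes were not called. Tap1, a subunit of the peptide transporter, measured 9.46 and 9.14 FPKM in control, 22.3, 13.7, 6.19 and 7.31 FPKM at day 2, and 9.21 and 6.22 FPKM at day 14. As with the GTPases, day 2 replicate 1 was the highest library. Tapbp, which encodes tapasin, measured 26.2 and 34.2 FPKM in control, 27.5, 29.8, 31.3 and 24.7 FPKM at day 2, and 19.6 and 34.1 FPKM at day 14. The day 2 range of Tapbp, the highest over the lowest, was 1.27 times. The median log2 change of the 5 class I members was -0.08 at day 2 and 0.18 at day 14 against control, and with the length and GC trend removed -0.38 and -0.07, so the direction at day 14 turned.

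Nlrc5, the transactivator of class I genes, measured 10.1 and 6.47 FPKM in control, 25.3, 15.1, 5.74 and 7.38 FPKM at day 2, and 21.7 and 12.6 FPKM at day 14. Day 2 replicate 1 was again the highest, as for Tap1. Of the immunoproteasome subunits, Psmb8 ran from 19.5 to 31.6 FPKM and Psmb9 from 7.46 to 14.5 FPKM over all libraries. Psmb10 measured 19.6 and 22.2 FPKM in control, 44.9, 33.0, 30.0 and 30.0 FPKM at day 2, and 29.8 and 48.6 FPKM at day 14. All 6 later libraries lay above both controls for Psmb10, which was not called. All 20 other class I genes listed were tested, and 1 was called at day 2 and 2 at day 14 against control, all lower. Among all genes 11.5% and 4.58% were called lower in these comparisons. Erap1, the aminopeptidase that trims peptides in the endoplasmic reticulum, measured 22 and 25.6 FPKM in control, 4.82, 4.59, 8.55 and 6.29 FPKM at day 2, and 6.82 and 8.07 FPKM at day 14. It fell by 1.84 ± 0.26 log2 units at day 2 (limma adjusted p = 0.0047) and by 1.55 ± 0.30 at day 14 (adjusted p = 0.0296). Canx, the chaperone calnexin, was lower at day 14, at 19.9 and 43.5 FPKM against 148 and 138 FPKM in control (-2.24 ± 0.48 SE, adjusted p = 0.0339). With the length and GC trend removed neither was called at day 14, Erap1 at -1.24 (adjusted p = 0.0555) and Canx at -1.95 (adjusted p = 0.059), and Canx was not called with no filter either.

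**Figure D5:**
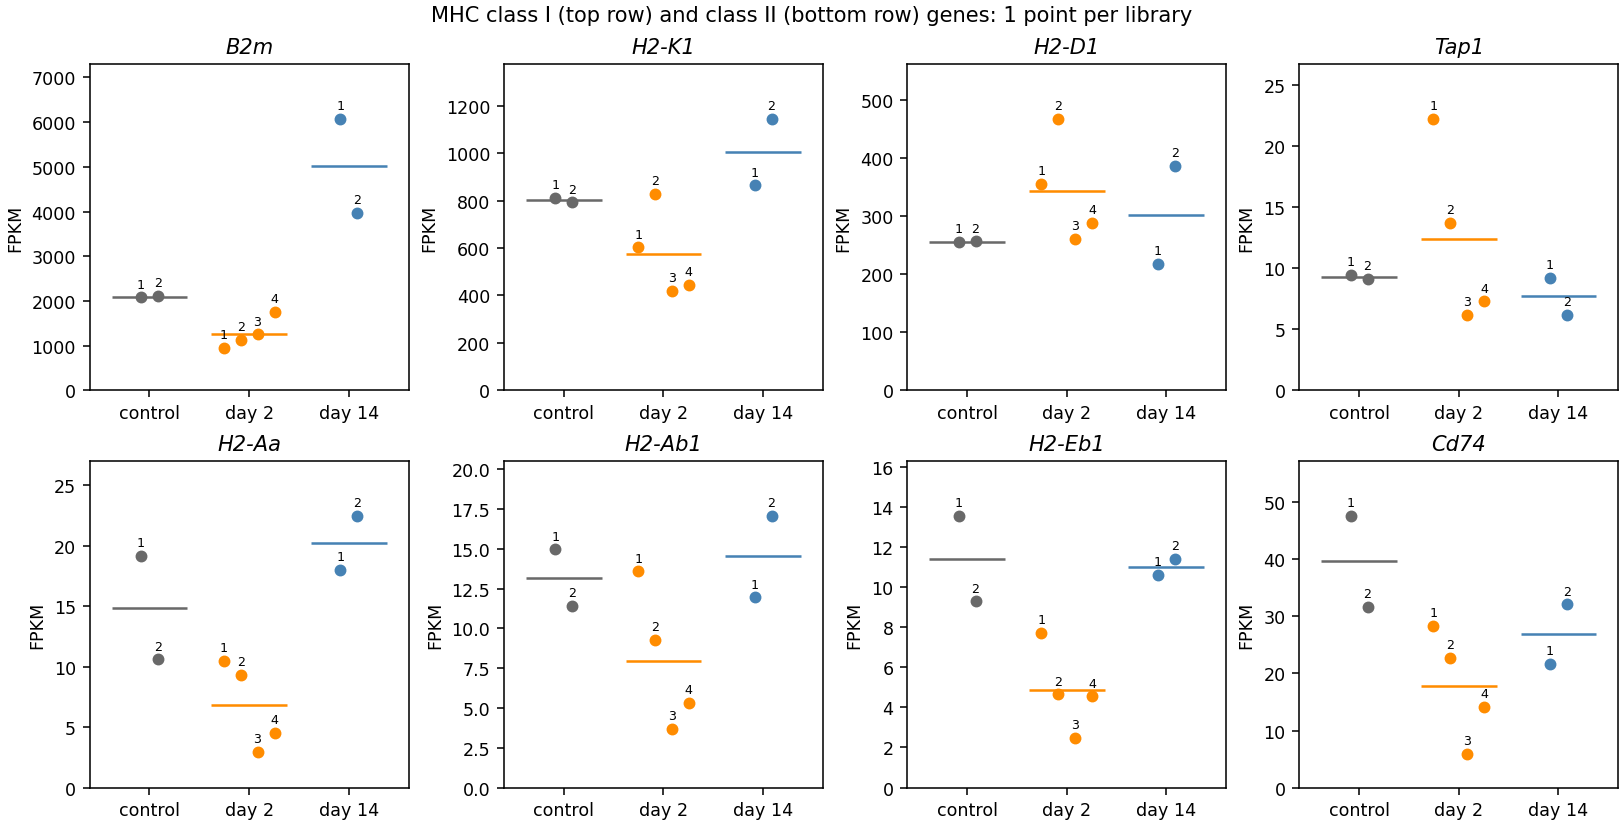
FPKM (y axis) of 4 MHC class I genes and 4 MHC class II genes in control, day 2 and day 14 libraries (x axis), with 1 point per library marked by its replicate number and a line at the group mean. The day 14 points of B2m, at 6080.4 and 3975 FPKM, lie above all others, and replicate 3 is the lowest day 2 point of every class II gene.

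The mean of each of the 4 MHC class II genes was lowest at day 2, and 1 of the 4 was called there. H2-Eb1, the β chain of I-E, measured 13.6 and 9.29 FPKM in control, 7.72, 4.65, 2.49 and 4.55 FPKM at day 2, and 10.6 and 11.4 FPKM at day 14. It was the 1 class II member called, lower at day 2 by 1.14 ± 0.35 log2 units (limma adjusted p = 0.0497), at the edge of the threshold. The call was lost with no filter (adjusted p = 0.0982), with only the compared groups (0.0767), with a pseudocount of 0.1 (0.0542), without limma's trend (0.0517), and when control replicate 1 or 2, day 2 replicate 2, 3 or 4, or either day 14 library was left out, where the change was between -1.39 and -0.89. C57BL/6 mice lack a working I-E α chain, so this transcript does not yield I-E at the cell surface.

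H2-Aa, the α chain of I-A, measured 19.2 and 10.6 FPKM in control, 10.5, 9.33, 2.97 and 4.54 FPKM at day 2, and 18.0 and 22.5 FPKM at day 14. Day 2 lay below both groups, and with the length and GC trend removed H2-Aa was called higher at day 14 than at day 2 (log2 change 1.66, limma adjusted p = 0.0472). H2-Ab1, the β chain of I-A, measured 15.0 and 11.4 FPKM in control, 13.6, 9.25, 3.68 and 5.32 FPKM at day 2, and 12.0 and 17.1 FPKM at day 14. Cd74, the invariant chain that chaperones class II, measured 47.7 and 31.7 FPKM in control, 28.3, 22.7, 5.87 and 14.2 FPKM at day 2, and 21.7 and 32.1 FPKM at day 14. Its log2 change was -0.54 ± 0.63 SE at day 14 against control (limma adjusted p = 0.611) and 0.74 ± 0.54 at day 14 against day 2 (adjusted p = 0.362). The ratio of Cd74 to H2-Aa in FPKM was 2.49 and 2.99 in control, 1.98 to 3.12 at day 2, and 1.21 and 1.43 at day 14, the 2 lowest of all libraries.

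The median log2 change of the 4 class II genes was -1.12 at day 2 against control and 1.01 at day 14 against day 2. By library the median against control was -0.43, -0.66, -1.88 and -1.28 in day 2 replicates 1 to 4. All 4 genes were highest in replicate 1 and lowest in replicate 3 within day 2. Ciita, the master regulator of class II, was at most 0.259 FPKM in any library and was not tested. Of 12 other class II genes 6 were tested. Their median log2 change at day 2 against control was 0.26, with 3 changes above 0 and 3 below. Wholly above control lay 2 of them and wholly below 0, so the day 2 fall of the 4 members was not shared by this list. Lgmn, a lysosomal protease of the antigen-processing route, was called higher at day 2, at 64.1, 56.6, 38.3 and 51 FPKM against 22.1 and 22.3 FPKM in control (1.18 ± 0.27 SE, limma adjusted p = 0.0209), a call lost with the length and GC trend removed (0.99, adjusted p = 0.0505). It was lower again at day 14 than at day 2, at 10.9 and 16.8 FPKM (-1.85 ± 0.27 SE, adjusted p = 0.0071).

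Markers of the cells that carry class II are given beside these levels. The 10 Kupffer cell markers, all tested, summed to 190.0 and 160.0 FPKM in control, 175, 227, 196 and 269 FPKM at day 2, and 73.9 and 85.5 FPKM at day 14. Marco, a scavenger receptor among them, measured 2.38 and 1.82 FPKM in control and 35.5, 80.4, 33.4 and 51.0 FPKM at day 2. Without Marco, left out after its values were seen, the other 9 summed to 188 and 158 FPKM in control, 139, 146, 163 and 218 FPKM at day 2, and 69.5 and 79.4 FPKM at day 14, so that day 2 replicates 1 and 2 lay below both controls. Adgre1, which encodes F4/80, measured 3.89 and 2.6 FPKM in control and 0.454, 0.223, 1.45 and 1.26 FPKM at day 2, and Csf1r, the receptor for macrophage colony-stimulating factor, 7.58 and 5.96 FPKM and 3.64, 3.35, 3.28 and 3.90 FPKM. Both were lower in all 4 day 2 libraries than in control. C1qa, C1qb and C1qc went the other way, above both controls in day 2 replicates 1, 2 and 4. C1qa measured 33.9 and 31.3 FPKM in control and 38.2, 46.4, 30.0 and 46.4 FPKM at day 2. Day 14 had the lowest sums with or without Marco. Clec4f, which defines Kupffer cells, measured 44.9 and 40.3 FPKM in control, 20.1, 14.1, 40.1 and 46.7 FPKM at day 2, and 34.8 and 31.1 FPKM at day 14. Of 9 conventional dendritic cell markers 2 were tested, and the sum was 2.42 to 5.77 FPKM over all libraries. Of 7 B cell markers 1 was tested, and the sum was 6.47 and 3.28 FPKM in control, 1.37 to 3.66 FPKM at day 2, and 11.0 and 11.7 FPKM at day 14. Ms4a1, a defining B cell marker, was listed at 0 in day 2 replicates 1, 2 and 3. The 5 plasmacytoid dendritic cell markers summed to at most 1.18 FPKM. Sinusoidal endothelial markers (6, all tested) summed to 84.6 and 79.3 FPKM in control, 28.4, 14.7, 39.7 and 63.4 FPKM at day 2, and 20.3 and 39.8 FPKM at day 14. The part of these cells in the class II levels was not tested.

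Transcript length moved with the changes of the members. Over the 36 tested members, Spearman's rho between length and log2 change was 0.01 at day 2 against control, -0.57 at day 14 against control and -0.57 at day 14 against day 2. Over 12307 tested genes with a length it was -0.32, -0.29 and 0.05. These are relations across genes of the same libraries, and genes are not independent replicates. The 13 tested members whose day 14 libraries lay wholly above control had transcripts of 756 to 4397 bases (median 1771), from Isg15 to Stat2, and the 12 wholly below had 1885 to 7417 bases (median 2901.5), from Oas1a to Parp14. With the length and GC trend removed, 4 of the 6 day 2 calls were kept (Ifit1, Rsad2, Ifit3 and H2-Eb1), 0 of the 2 at day 14 against control, and all 5 higher calls at day 14 against day 2. Over all genes with the trend removed, 5.1% were called higher and 8.04% lower at day 2 against control, 1.67% higher and 1.67% lower at day 14 against control, and 9.24% higher and 7.22% lower at day 14 against day 2. After the removal, rho among the members was 0.42, -0.32 and -0.62 in the 3 comparisons, so a relation with length was still present among them, and at day 2 it was larger than before.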

How the data were processed

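Liver RNA was prepared with an Illumina TruSeq kit and sequenced as 8 libraries, per the labels' protocols. The authors deposited 1 table of FPKM values per gene and library, per the file headers. The submitters' processing notes name GRCm38 and mm9 as builds, and HISAT2 2.10, Cufflinks 2.2.1, DESeq2 and HTSeq as tools, with no role. The annotation, the strand setting and any scaling across columns of the table were not given in the sources used here, so overlapping and antisense genes cannot be told apart.

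Values were analysed as log2(FPKM + 1), which understates changes of genes of low level. The filter was 1 FPKM or more in 2 or more libraries. A limma 3.58.1 model (R 4.3.3) had 3 group means and its trend option, with 5 residual and 3.23 prior degrees of freedom. Calls used Benjamini-Hochberg adjustment over all genes tested, at 0.05. The fit was tested on simulated data in which 200 of the 12340 genes had known changes. Positions are those of GENCODE M21 on GRCm38, by Ensembl identifier, and promoters are from RefSeq. The members and all gene lists were chosen with earlier results of these data known.

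Every member is given with its level in each library, except Ifit2, Oas1a and Xaf1, which are given by their range. A test is printed for members called in a comparison, and otherwise for the most abundant member of a role. Parp9 and H2-Aa, which lay near the threshold, were added after their values were seen. So were the levels of Psmb10, Marco, Adgre1, Csf1r, C1qa, C1qb and C1qc. Of other pathway genes, up to 3 called per list and comparison are named, with Nlrc5, Ciita, Psmb8, Psmb9, Mx1, Ifnb1 and Ifng by their levels. Each alternative changed 1 choice: the pseudocount (0.1), the filter (none, or 5 FPKM), the scaling (median-ratio, quantile), the samples in the fit (the compared groups alone, or all but 1 library), limma's trend (off), and a spline correction (4 degrees of freedom) for transcript length and GC content. Python 3.11.15, pandas 2.3.3 and matplotlib 3.10.9 were used.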

Additional observations from a re-analysis of the deposited data

Results flagged for a closer look

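Among the 4 day 2 libraries, 4 of the 38 genes had a value set apart from the other 3, with a gap to the nearest other library that exceeded Dixon's 95% limit for 4 samples as a share of the whole day 2 range. For independent, normally distributed values chance flags about 1 in 20 groups in this way. FPKM values need not be normal, and the day 2 libraries correlated in pairs, so that rate may not hold here. The share of all genes flagged is not given, so the 4 are not set against a background. Igtp stood at 63.0 FPKM in day 2 replicate 1, Gbp7 at 4.27 FPKM and Irgm1 at 41.0 FPKM in the same library, and the gaps were 0.912, 0.973 and 0.863 of the range. Rsad2 stood at 1.01 FPKM in day 2 replicate 2, with a gap of 0.839 of the range. The first 3 belong to the interferon-inducible GTPases and share 1 library, whose title and age label give different days.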

How the results depend on the processing

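No member was called higher at day 2 against control under any alternative run. The 6 called lower there became 2 with no filter and 3 with only the compared groups, and 0 to 7 when a library was left out. At day 14 against control, 4 were called higher in place of 0 with only the compared groups (Ifi35, Igtp, Irf7 and Isg15), and 0 to 2 with a library left out. The 2 called lower there became 1 with a pseudocount of 0.1, a filter at 5 FPKM, median-ratio scaling or quantile scaling, 0 with no filter or with the length and GC trend removed, 4 with only the compared groups, and 0 to 3 with a library left out. At day 14 against day 2 the 5 called higher became 2 with no filter and 1 with only the compared groups, and 0 to 7 with a library left out. The 1 called lower became 0 with no filter, quantile scaling, the trend removed or only the compared groups, and 0 to 1 with a library left out. The cause of these shifts was not tested. Shares of all genes called are given above only for the main fit and with the trend removed. The median of MHC class I was -0.38 at day 2 with the trend removed, and -0.10 at day 14 against control under quantile scaling. With a library left out it ran from -0.013 to 0.51 at day 14 against control and from -0.23 to 0.26 at day 14 against day 2. Iigp1 at day 14 against day 2, never called, changed sign with the trend removed (-0.11) and ran from -0.29 to 0.49 with a library left out. Of the single genes under each alternative, 586 values stayed on their side of the threshold, 210 lost the call, 2 gained it and 4 changed sign.

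No paired analysis was possible because the titles share only 1 replicate number between the hepatectomy groups, and none ties a library to a control. Absolute depth was unknown and no counting interval is given.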
